A study of Xenopus tropicalis with 9 samples.

Results

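The polyadenylated RNA of Xenopus tropicalis embryos was compared between the late and the early blastula, over every gene with at least 1 RPKM in one of the 2 libraries. RPKM expresses the reads of a gene relative to the length of its exons in kilobases and to all mapped reads of its library. This rule kept 9402 of the 15288 genes of the table (61.5%). Whole embryos were obtained by in vitro fertilization of outbred frogs in 3 separate crosses and were staged by Nieuwkoop-Faber criteria. The late blastula was stage 9, which lies after the mid-blastula transition (MBT), and the early blastula was stage 6, which lies before it. Both groups were untreated, and both polyA RNAs went through 2 successive rounds of Oligotex capture and random-hexamer cDNA synthesis. RNA of the 3 biological replicates was pooled, so each stage had 1 library, no replicate error could be computed and no test was made. A change is given as log2 of stage 9 RPKM over stage 6 RPKM, and the centred change is that value minus the median over all genes compared. Genes were said to have risen or fallen when the centred change reached 4-fold, which is a rule of size and not a test.

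The early frog embryo divides rapidly on RNA that was laid down in the oocyte, while its own genome is largely silent. After the MBT the cell cycle lengthens and zygotic transcription becomes widespread. Maternal messages in this period are controlled through their tails, which cytoplasmic poly(A) polymerases extend and deadenylases shorten. An RNA with a very short tail is not retained on oligo(dT), so a change in polyA RNA may be a change in the amount of RNA or in the length of its tail, and the polyA libraries alone cannot tell these apart. The study also sequenced total RNA depleted of ribosomal RNA (RZ) at the same stages, which does not depend on the tail. As these are whole embryos, fewer cells of a type and less RNA per cell cannot be told apart either.

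The stage 9 and stage 6 polyA libraries were the shallowest and the deepest of the 9 libraries in the table. Reads recovered from single-exon genes put 13422643 mapped reads in the stage 9 library and 44490754 in the stage 6 library. Stage 9 RZ had 23857216 and stage 6 RZ 22365493. Taking 3 reads as the floor, a count of 3 on 1 kb of exon corresponded to 0.224 RPKM at stage 9 and 0.0674 RPKM at stage 6. The summed RPKM of all genes was 295947 at stage 9 and 128617 at stage 6. Of the genes compared, 8009 reached 1 RPKM in both libraries, 1340 only at stage 9 and 53 only at stage 6. A change could be computed for 9348 genes. The remaining 54 genes were listed at 0 at stage 6 and are given without a fold, and no gene compared was listed at 0 at stage 9.

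By deposited RPKM most genes stood higher in polyA at stage 9, as did the sum over all genes. As deposited, 8497 of the 9348 genes (90.9%) had the higher RPKM at stage 9 and 851 the lower. The median log2 change was 1.53, a 2.88-fold difference, with quartiles of 0.79 and 2.23 and an SD across genes of 1.22. By deposited values 3005 genes were at least 4-fold higher at stage 9 (32.1%) and 43 at least 4-fold lower (0.46%). In the RZ libraries the same genes had a median log2 change of 0.49. As deposited, the polyA difference exceeded the RZ difference for the typical gene, and each is relative to the mapped reads of its own library. The summed RPKM also differed more in polyA than in RZ, where it was 189331 at stage 9 and 152651 at stage 6. How much of the difference between the 2 medians goes with these sums was not tested.

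After centring on the median, 329 genes (3.52% of those with a change) had risen and 471 (5.04%) had fallen. The genes nearest the limit had centred changes of 2.0029 and 1.9997 on the upper side and of -2.0005 and -1.9996 on the lower side, so that no gap separated the groups. The split depended on the centre. The 2822 genes with at least 10 RPKM in both libraries had a lower median change of 1.01, and the summed RPKM differed by 1.202. Centred on these abundant genes, every change moved up by 0.51 on the log2 scale, with 776 genes risen and 224 fallen. Scaled to equal summed RPKM, changes moved up by 0.32, with 570 risen and 294 fallen. With a pseudocount of 1 RPKM, which damps changes of low genes, 97 genes rose and 245 fell. Of the 329 risen genes, 235 had been under 1 RPKM at stage 6 and 94 at 1 RPKM or more. The 235 were among 1286 genes with a change that were under 1 RPKM at stage 6. The median log2 change of these 1286 genes was 2.52.

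**Figure D1:**
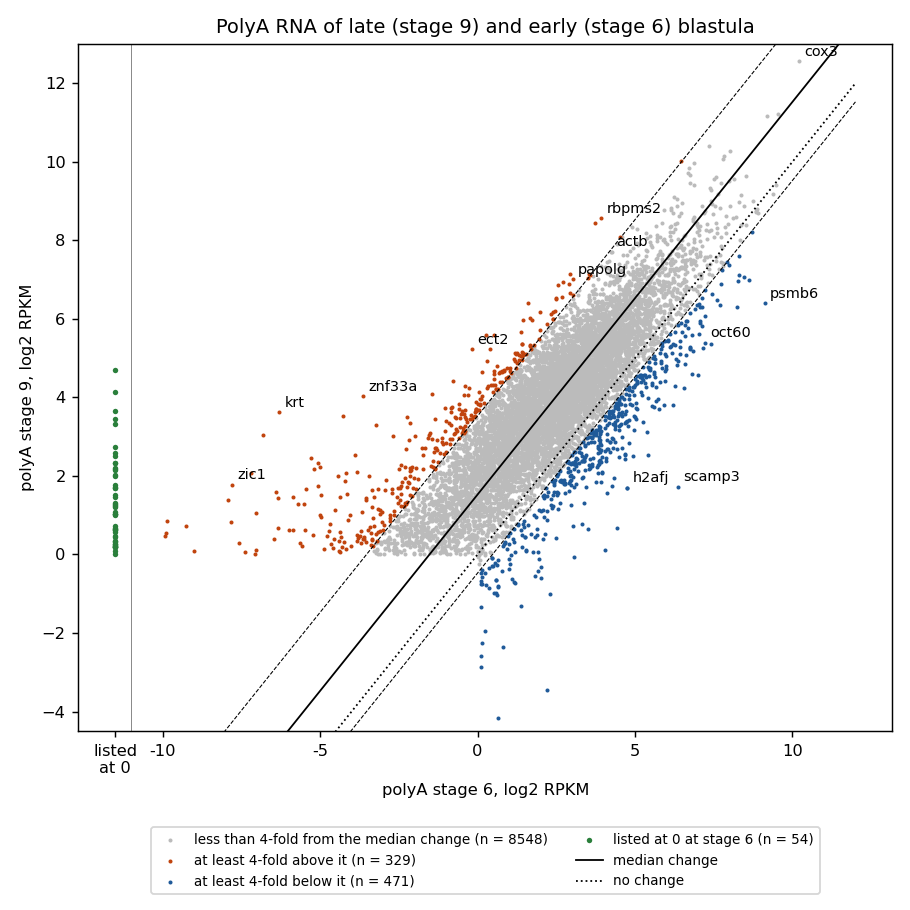
PolyA RPKM at stage 9 (y axis, log2) against stage 6 (x axis, log2), 1 point per gene, with genes listed at 0 at stage 6 on a strip at the left. The solid line is the median change of 1.53, the dashed lines lie 4-fold from it and the dotted line marks equal RPKM, above which most of the genes lie.

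Of the 6 most abundant polyA RNAs at each stage, cox3, ftmt and rps20 were common to both stages. At stage 9 the leaders began with cox3, ftmt and rps20. The gene listed as cox3, a model of 0.474 kb on scaffold 6, had 6040.4 RPKM at stage 9 and 1181 at stage 6. The gene listed as ftmt had 2366 RPKM at stage 9 and 752 at stage 6. The small-subunit ribosomal protein gene rps20 had 2289 RPKM at stage 9 and 587 at stage 6. The mitotic cyclin genes ccnb2, ccna1 and ccnb1 completed the stage 9 leaders. The cyclin gene ccnb2 had 1247 RPKM at stage 9 and 256 at stage 6, ccna1 had 1132 RPKM at stage 9 and 228 at stage 6, and ccnb1 had 1082 RPKM at stage 9 and 224 at stage 6. The 3 cyclins lay close together in centred change, between 0.74 and 0.79, short of the 4-fold limit. At stage 6 the leaders were cox3, ftmt, eif1b, slc25a5, rps20 and psmb6. The translation initiation gene eif1b (682 RPKM at stage 9, 711 at stage 6) and the mitochondrial ADP/ATP carrier slc25a5 (585 RPKM at stage 9 and 669 at stage 6) were nearly level as deposited, which gave centred changes of -1.59 and -1.72.

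Some genes that pattern the late blastula were listed at 0 in polyA at stage 6. A gene at 0 at stage 6 was compared only if it reached 1 RPKM at stage 9, so its direction follows from the filter. The same holds, as deposited, for every gene under 1 RPKM at stage 6. All risen genes of the 3 lists named next were under 1 RPKM there. Of all 1286 genes under 1 RPKM there with a change, 235 rose. This is a larger share than the 3.52% over all genes that is set beside each list. Of 51 genes compared from 3 lists (early signals and organizer factors, mesendoderm factors, and pluripotency and ectoderm factors), 19 were listed at 0 in polyA at stage 6, against 54 of the 9402 genes compared, and the others were above 0 there. Not compared, being under 1 RPKM in both libraries, were 19 of 31 signals and organizer factors, 13 of 29 mesendoderm factors and 8 of 31 pluripotency and ectoderm factors. At stage 9 the 19 genes had between 1.06 and 17.7 RPKM. 18 of them were at 0 at stage 6 in RZ too, and all had between 0.503 and 3.34 RPKM in RZ at stage 9. The lowest of these levels rest on few reads, as 1 read on 1 kb of exon corresponded to 0.0745 RPKM in polyA at stage 9. Close paralogs such as the nodal, ventx and sia genes can lose reads, since the authors dropped reads with more than 1 mapping position.

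Among signals and organizer factors, 12 of 31 genes in the table reached 1 RPKM, 8 of them from 0 at stage 6. The other 4 had a change, of which 3 rose and 0 fell, against 3.52% risen and 5.04% fallen over all genes. The twin homeobox genes sia2 and sia1, dorsal targets of maternal Wnt signalling, are side by side on scaffold 40 (JGI 7.1, 14308 to 36423). In polyA sia2 had 5.73 RPKM at stage 9 against 0 at stage 6, and sia1 had 3.28 against 0. The Nodal ligand gene nodal6 had 3.4002 RPKM at stage 9, nodal3.2 had 2.44 and nodal5 had 2.06, each listed at 0 at stage 6 in both polyA and RZ. By stage 12 sia2, sia1, nodal3.2 and nodal5 had between 0.0451 and 0.205 RPKM in polyA, while nodal6 was at 0.526. The Wnt ligand gene wnt8a had 1.204 RPKM and the FGF ligand gene fgf8 1.58 at stage 9, both from 0 at stage 6.

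Antagonists and BMP-type ligands rose as well. The Nodal inhibitor gene lefty had 3.18 RPKM at stage 9 and 0.02303 at stage 6, a centred change of 5.58. The organizer ligand gene admp had 4.01 RPKM at stage 9 and 0.0466 at stage 6, a centred change of 4.902, and bmp4 had 1.64 RPKM at stage 9 and 0.103 at stage 6, a centred change of 2.47. All 3 were higher at stage 9 in RZ too, where lefty had 3.69 RPKM against 0, admp 6.51 against 0 and bmp4 2.66 RPKM at stage 9 and 0.138 at stage 6. At stage 6 lefty and admp were under the floor of 3 reads on 1 kb, so that their folds rest on a few reads. With a pseudocount of 1 RPKM the centred changes were 0.81 for lefty, 1.04 for admp and 0.04 for bmp4. The organizer homeobox gene not, which is also maternal, had 21.8 RPKM at stage 9 and 5.07 at stage 6 and stayed within 4-fold of the median change at 0.58. The 19 other genes of the list stayed under 1 RPKM in both libraries. Among them, at stage 9, gsc had 0.671 RPKM, the BMP antagonist gene chrd 0.574, nodal 0.429 and cer1 0, against at most 0.0178 at stage 6.

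Mesendoderm factors gave 16 genes of 29 in the table, of which 9 came from 0 at stage 6, 2 rose and 0 fell. The shares over all genes were 3.52% risen and 5.04% fallen. The paired-type homeobox genes mix1 and mixer, targets of Nodal signalling, had 5.03 and 2.02 RPKM at stage 9, against 0 for both at stage 6. The T-box gene eomes had 2.33 RPKM at stage 9 and the endodermal HMG-box gene sox17b.1 had 1.06, against 0 at stage 6. The related sox17a, whose model lies within the span of sox17b.1 on the same strand, has a single exon, so its reads could be counted. There were 27 at stage 9 and 1 at stage 6, for a centred change of 4.96 with a 95% counting interval of 2.36 to 10.31. The 1 read of sox17a at stage 6 was not counted for sox17b.1, which was listed at 0 there. With the pseudocount of 1 the centred changes of sox17a and of the other risen member, ventx3.2, were 0.10 and 0.86, short of 4-fold. The maternal T-box factor vegt and forkhead factor foxh1 lay below the median. The maternal endoderm determinant vegt had 122 RPKM at stage 9 and 75.1 at stage 6, and foxh1, a partner of Smads, had 109 RPKM at stage 9 and 93.3 at stage 6, with centred changes of -0.82 and -1.301. The median centred change of the 7 members with a change was 0.49, against 0 over all genes by construction, and it was -0.81 among genes of at least 5 RPKM and -0.05 among genes of at least 1 RPKM in both.

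The ventx genes, homeobox repressors of dorsal fate that BMP signalling induces, formed 1 locus. All 6 lie next to each other on scaffold 7 (21449929 to 21511012), in the order ventx3.2, ventx1.2, ventx3.1, ventx2.2, ventx1.1 and ventx2.1. At stage 9 ventx2.2 had 17.7 RPKM, ventx2.1 12.7, ventx1.1 5.01, ventx3.1 4.09 and ventx1.2 1.25, each against 0 at stage 6. The sixth gene, ventx3.2, had 3.34 RPKM at stage 9 and 0.0298 at stage 6, a centred change of 5.28. In RZ at stage 9 the 6 genes had between 0.869 and 2.61 RPKM, against 0.0289 for ventx2.1 and 0 for the others at stage 6. The order of levels differed, as ventx2.2 and ventx2.1 led in polyA and ventx3.1 led in RZ. By stage 12 the 6 genes reached between 8.26 and 94.4 RPKM in polyA.

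Of the pluripotency and ectoderm factors, 23 of 31 were compared and 2 came from 0 at stage 6. In this list 5 rose and 2 fell, against 3.52% risen and 5.04% fallen over all genes, and the median centred change was 0.36. The neural plate factor zic1 had 3.42 RPKM at stage 9 and 0.00446 at stage 6, with a centred change of 8.06. The ectodermal AP-2 factor tfap2a had 1.23 RPKM at stage 9 and 0.005298 at stage 6 (centred 6.33), which became -0.07 with a pseudocount of 1, and both zic1 and tfap2a were under the floor of 3 reads on 1 kb at stage 6. The Krüppel-like factor klf17 had 12.96 RPKM at stage 9 and 0.659 at stage 6 (centred 2.77). The bHLH inhibitor gene id3 had 8.41 RPKM at stage 9 and 0.597 at stage 6 (centred 2.29). The SoxB1 gene sox2, a single-exon gene, had 47 reads or 1.5002 RPKM at stage 9 and 5 reads or 0.0482 RPKM at stage 6, and its centred change of 3.44 had a counting interval of 2.11 to 5.12. With the pseudocount none of the 5 stayed past 4-fold, as zic1 had 0.92, klf17 1.85, id3 1.34 and sox2 0.04. The forkhead gene foxi4.2 had 4.54 RPKM at stage 9 and foxi1 1.28, both from 0 at stage 6.

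Some other members of the same list lay below the median. The SoxB1 gene sox3 had 168 RPKM at stage 9 and 167 at stage 6, a centred change of -1.51 with a counting interval of -1.57 to -1.46. The Xenopus counterparts of mammalian Oct4 did not all pass the limit. The oocyte-type gene oct60 fell, with 41.9 RPKM at stage 9 and 150.2 at stage 6 (centred -3.37), and so did oct91, with 1.401 RPKM at stage 9 and 3.74 at stage 6 (centred -2.94). The third, oct25, had 114 RPKM at stage 9 and 97.7 at stage 6 (centred -1.31). In RZ oct60 was nearly level, at 47.02 RPKM at stage 9 and 45.5 at stage 6. At stage 12, oct91 reached 274 RPKM in polyA. Among repressors of the hairy/enhancer-of-split family, hes4 rose (10.9 RPKM at stage 9, 0.388 at stage 6, centred 3.28) and hes2 rose (12.3 RPKM at stage 9 and 0.558 at stage 6, centred 2.94), with 1.88 for hes4 and 1.88 for hes2 under the pseudocount. The maternal hes7.1 had 512 RPKM at stage 9 and 172 at stage 6 and a centred change of 0.05.

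**Figure D2:**
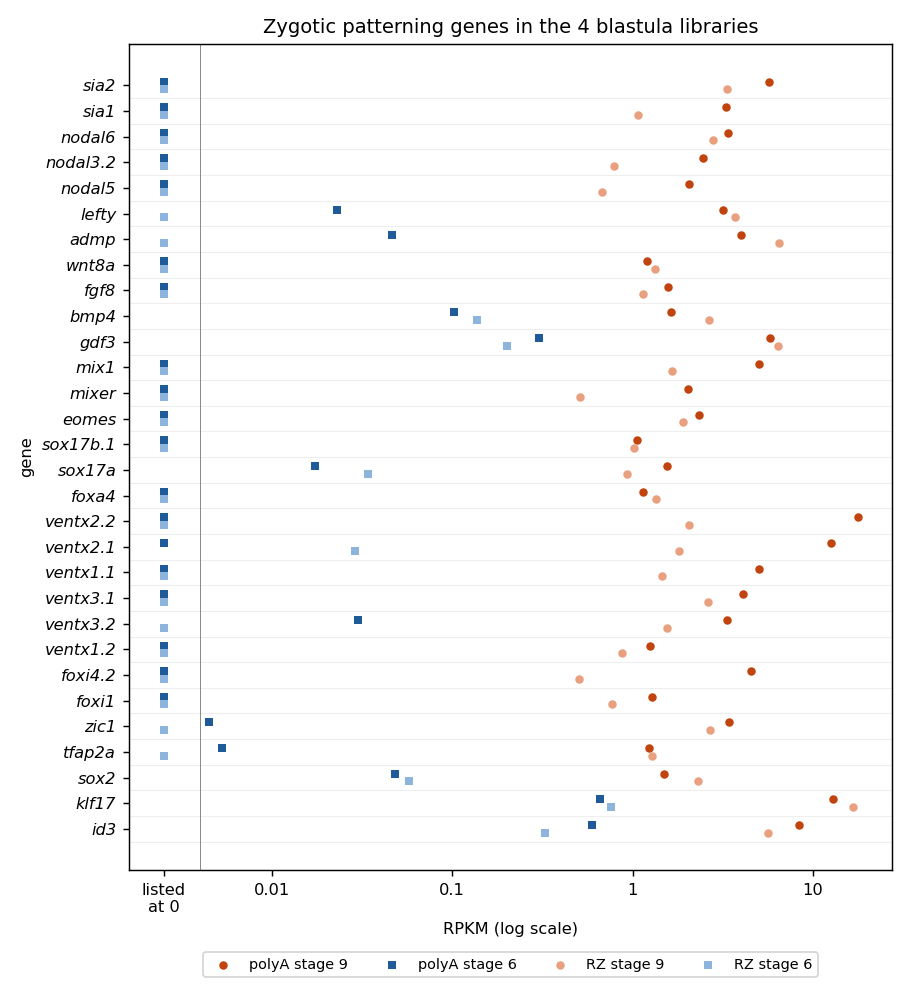
RPKM on a log scale (x axis) of 30 patterning genes (y axis) in polyA stage 9, polyA stage 6, RZ stage 9 and RZ stage 6, 1 library each, with values of 0 on a strip at the left. The genes shown all rose or were listed at 0 at stage 6 in polyA, so their order in polyA follows from that choice. List members that were level or fell, such as sox3 and oct60, are not shown. In RZ too the stage 9 point of every gene shown lies to the right of its stage 6 point. In polyA at stage 9 ventx2.2 reaches 17.7 RPKM.

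Maternal components of the signalling pathways lay near the median of all genes as a group. Of 24 genes, 1 rose and 1 fell, against 3.52% risen and 5.04% fallen over all genes. Their median centred change was -0.19, which became 0.13 with equal summed RPKM and 0.32 when centred on abundant genes. The TGF-beta ligand gene gdf3 rose, with 5.78 RPKM at stage 9 and 0.301 at stage 6 (centred 2.73), and in RZ with 6.36 RPKM at stage 9 and 0.202 at stage 6. With the pseudocount its centred change was 1.16, so that the only rise of the list was lost. The Wnt signal transducer dvl2 fell and lay at the limit (-1.65 with the pseudocount), with 8.93 RPKM at stage 9 and 12.4 at stage 6 (centred -2.001). Others were close to level as deposited, as the Wnt receptor gene fzd7 had 38.2 RPKM at stage 9 and 45.6 at stage 6, and smad1, a transducer of BMP signals, had 93.7 RPKM at stage 9 and 78.8 at stage 6. The BMP receptor gene bmpr1a had 20.6 RPKM at stage 9 and 2.03 at stage 6, a centred change of 1.81 that stayed inside 4-fold.

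Zinc finger genes, most of them presumed DNA-binding repressors, had a median centred change of 0.32 over 152 znf and zbtb genes. Of these 11 rose and 2 fell, against 3.52% risen and 5.04% fallen over all genes. Of the risen genes, 6 form 1 unbroken stretch of scaffold 6 (141464395 to 141635624). In that order, znf665 had 2.45 RPKM at stage 9 and 0.0192 at stage 6, znf470 had 2.78 RPKM at stage 9 and 0.0488 at stage 6, and znf33a had 16.4 RPKM at stage 9 and 0.0808 at stage 6. Further along, znf350 had 4.7002 RPKM at stage 9 and 0.0312 at stage 6, znf33b had 11.6 RPKM at stage 9 and 0.0513 at stage 6, and znf3 had 9.89 RPKM at stage 9 and 0.107 at stage 6. Their centred changes ran from 4.31 (znf470) to 6.29 (znf33b), and for the single-exon znf33b, with 136 reads at stage 9 and 2 at stage 6, the counting interval was 4.41 to 9.35. All 6 were under 1 RPKM at stage 6, so their direction as deposited follows from the filter. Of all 1286 genes under 1 RPKM there with a change, 235 rose. With the pseudocount znf665 (0.54), znf470 (0.63) and znf350 (1.25) were short of 4-fold. In RZ the 6 genes had between 1.66 and 6.26 RPKM at stage 9, against at most 0.484 at stage 6. In polyA at stage 12 they were down to between 0.0939 and 1.64 RPKM. Such clustered genes are often near-identical copies, so the share of reads given to each is uncertain.

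The other risen zinc finger genes were znf827, znf592, znf503, zbtb11 and znf624, and they had maternal RNA at stage 6. With the pseudocount znf827 (1.99), zbtb11 (1.57) and znf624 (0.29) were short of 4-fold. The highest of them, znf503, had 73.4 RPKM at stage 9 and 5.44 at stage 6 (centred 2.23), and znf592 had 34.99 RPKM at stage 9 and 2.26 at stage 6 (centred 2.43). Both fallen genes lie on small scaffolds, with znf148 at 1.56 RPKM at stage 9 and 3.695 at stage 6, and znf512b at 0.09198 RPKM at stage 9 and 4.61 at stage 6, its stage 9 value being under the floor. The RZ changes varied among the risen genes, as znf592 had a centred RZ change of 1.09 and znf827 of -0.67. A 153rd list member, znf527, was listed at 0 in polyA at stage 6. It had 4.63 RPKM at stage 9 and 10.6 at stage 12 in polyA. In RZ znf527 had 7.06 RPKM at stage 9 and 0.00891 at stage 6. Outside the list, prdm9, a zinc finger methyltransferase gene of meiotic recombination in mammals, was listed at 0 at stage 6 in polyA and had 3.22 RPKM at stage 9, with 4.297 RPKM in RZ.

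Some risen genes were neighbours. Of the 383 genes that rose or came from 0, 50 (13.1%) had another such gene as their next neighbour among all genes of the table, in 19 runs, and such genes made up 2.51% of the table, where each gene has a neighbour on both sides. Besides the ventx, sia, sox17 and zinc finger runs, these included mix1, mixer and lin9 on scaffold 5 (118170609 to 118208869) and nbr1 with brca1 on scaffold 10 (26199031 to 26302080). Of the 471 fallen genes, 45 (9.55%) had a fallen neighbour, in 22 runs, and fallen genes made up 3.08% of the table. No test was made of either share. The cDNA method is not stated to keep strand, so reads of genes that overlap cannot be assigned to either.

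A second group of risen genes consisted of genes abundant in polyA at stage 16 or 30, and at stage 9 these were found in polyA but hardly in RZ. The keratin genes among them were already at 359 (krt5.7), 408 (krt) and 85.3 RPKM (krt19) in polyA at stage 12. Each of these keratin genes was higher at stage 16 than at stage 30. The highest gene listed at 0 at stage 6 was the keratin gene krt5.7, with 26.1 RPKM in polyA at stage 9 and 0.582 in RZ. The keratin gene krt had 12.3 RPKM at stage 9 and 0.0127 at stage 6 in polyA, the highest centred change of any named gene that reached 10 RPKM (8.39, though under the floor at stage 6), and 0.0631 RPKM against 0 in RZ. The muscle light chain gene mylpf had 9.99 RPKM in polyA at stage 9, krt19 6.68 and the lipase-related gene pnliprp3 6.04, all from 0 at stage 6, and in RZ at stage 9 they had 0, 0.0323 and 0 RPKM. In the list of late tissue markers (muscle, blood, nerve, liver), which an embryo of this age should lack, 31 of 40 genes were above 0 in polyA at stage 9 and 17 at stage 6, with summed levels of 49.4 and 2.57 RPKM. In RZ, 15 genes were above 0 at stage 9 and 17 at stage 6, with sums of 3.21 and 5.56. Of the 9 markers compared, 4 rose (the actin gene actc1, the myosin light chain gene myl1, the troponin gene tnnt3 and the creatine kinase gene ckm), 3 came from 0 and 0 fell. The shares over all genes were 3.52% risen and 5.04% fallen. Each of the 4 was under 1 RPKM at stage 6, so its direction as deposited follows from the filter. Of all 1286 genes under 1 RPKM there with a change, 235 rose. With the pseudocount none of the 4 stayed past 4-fold, at 1.99 for actc1, 1.75 for myl1, 0.53 for tnnt3 and 0.52 for ckm. Their median centred change was 3.24 over 6 genes, and it was -0.50 with a filter of 1 RPKM in both libraries, which left only 1 gene. The cardiac and blood transcription factor genes nkx2-5, gata1 and tal1 had at most 0.0786 RPKM at stage 9.

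The extent of this group was measured with a rule on levels. There were 43 genes of at least 100 RPKM in polyA at stage 30 and under 0.1 RPKM in RZ at both stages 9 and 6. Of these, 42 were above 0 in polyA at stage 9 and 23 reached 1 RPKM, whereas 13 were above 0 at stage 6 and 0 reached 1 RPKM. As a part of the stage 30 level, their polyA level at stage 9 had a median of 0.452% and quartiles of 0.315% and 1.02%, and it ran from 0% (ocm.2) to 8.34% (krt). They summed to 104 RPKM at stage 9 and 0.656 at stage 6, or 0.0353% of the stage 9 library. Among the 329 risen genes, 16 were under 0.1 RPKM in RZ at stage 9, and 12 of those had at least 100 RPKM at stage 16 or 30. Among the 54 genes listed at 0 at stage 6, 21 were, with 16 of them abundant later. Without every gene under 0.1 RPKM in RZ at stage 9, 316 genes rose and 466 fell. What brought these RNAs into the polyA stage 9 library was not tested. All 19 patterning genes that came from 0 had at least 0.5 RPKM in RZ at stage 9. The 43 genes were chosen for low RZ values, so RZ levels cannot be used to compare the 2 groups. Of the 33 genes listed at 0 at stage 6 with at least 0.1 RPKM in RZ at stage 9, 4 were also abundant later.

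**Figure D3:**
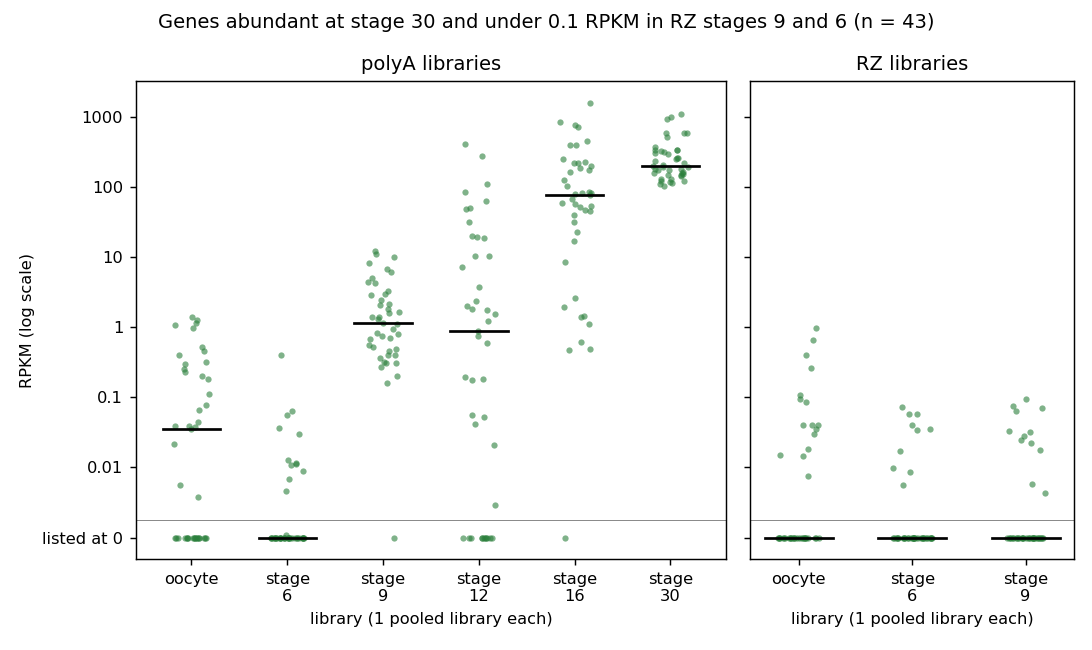
RPKM on a log scale (y axis) of the 43 genes with at least 100 RPKM in polyA at stage 30 and under 0.1 RPKM in RZ at stages 9 and 6, in each polyA library (left) and RZ library (right), with values of 0 on a strip at the bottom and medians as bars. The median is 1.14 RPKM in polyA at stage 9 and 0 at stage 6, and the low RZ values at these stages follow from the rule that chose the genes.

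Of the 329 risen genes, 254 had at least 1 RPKM in an oocyte library and 75 did not. The share was larger among the 471 fallen genes, of which 452 had at least 1 RPKM there. Every fallen gene was lower at stage 9 as deposited, so the filter required at least 1 RPKM of it at stage 6, before the MBT. Of the risen genes, 235 were under 1 RPKM at stage 6 and were kept for their stage 9 level. The filter thus favours a larger oocyte share among fallen genes, and no more was concluded from the difference. The maternal risen genes had a median of 5.49 RPKM in oocyte polyA. They stood at 0.675 RPKM by stage 6, 11.05 by stage 9 and 2.62 by stage 12. Oocyte RZ had a median of 5.54 for them, stage 6 RZ 2.997 and stage 9 RZ 8.63. The polyA medians at stages 6 and 9 follow from the choice of these genes by their polyA change. Both oocyte medians follow from the choice of genes with at least 1 RPKM in an oocyte library. The genes were not chosen on RZ at stages 6 and 9. The cytokinesis gene ect2 had 37.5 RPKM at stage 9 and 0.888 at stage 6 in polyA (centred 3.88), beside 35.3 in the oocyte, and 54.2 RPKM at stage 9 and 19.1 at stage 6 in RZ. The RNA-binding protein gene rbpms2 had 380.3 RPKM at stage 9 and 15.2 at stage 6 in polyA (centred 3.12), beside 247 in the oocyte, but 84.2 RPKM at stage 9 and 155 at stage 6 in RZ, where stage 9 was the lower.

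Other maternal genes with high centred changes split in the same way. Lower at stage 9 in RZ were c18orf21, the ESCRT-I gene vps37a and the COP9 signalosome gene cops4. In polyA c18orf21 had 21.3 RPKM at stage 9 and 0.582 at stage 6, and in RZ 11.03 RPKM at stage 9 and 34.2 at stage 6. For vps37a the polyA values were 48.2 RPKM at stage 9 and 1.45 at stage 6 and the RZ values 8.97 RPKM at stage 9 and 19.3 at stage 6. For cops4 they were 47.7 RPKM at stage 9 and 1.2005 at stage 6 in polyA, and 26.1 RPKM at stage 9 and 33.8 at stage 6 in RZ. Higher in both kinds of RNA were the deubiquitinase gene otud7a, the interferon-induced GTPase gene (in mammals) gbp5, the gut hormone receptor gene gipr and the formin gene inf2. In polyA otud7a had 11.3 RPKM at stage 9 and 0.211 at stage 6, and in RZ 12.3 RPKM at stage 9 and 1.002 at stage 6. For gbp5 the values were 16.9 RPKM at stage 9 and 0.368 at stage 6 in polyA, and 13.4 RPKM at stage 9 and 1.67 at stage 6 in RZ. The other two, gipr and inf2, had RZ levels at stage 9 of 2.53 and 13.8 RPKM, against 0.119 and 1.696 at stage 6, and polyA levels at stage 9 of 10.2 and 37.6, against 0.227 and 1.33 at stage 6. Some further risen genes were singled out after their values were seen, from no fixed list. The repair gene brca2 had 7.6004 RPKM at stage 9 and 0.223 at stage 6 (centred 3.56). Its partner in repair brca1 had 24.9 RPKM at stage 9 and 1.72 at stage 6 (centred 2.33). The cohesin loader gene nipbl had 19.6 RPKM at stage 9 and 1.26 at stage 6 (centred 2.43). In RZ brca2 had 11.6 RPKM at stage 9 and 0.803 at stage 6, brca1 41.1 RPKM at stage 9 and 15.3 at stage 6 and nipbl 29.3 RPKM at stage 9 and 2.25 at stage 6. With the pseudocount brca2 (1.59) and nipbl (1.97) were short of 4-fold, as was gipr (1.97). The deubiquitinase gene usp9x had 13.2 RPKM at stage 9 and 0.493 at stage 6 in polyA.

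The 471 fallen genes had a median of 7.29 RPKM at stage 9 and 16.4 at stage 6, and 43 of them were at least 4-fold lower as deposited. The secretory carrier gene scamp3, here a model of 0.333 kb on scaffold 581, had 3.32 RPKM at stage 9 and 81.7 at stage 6 (centred -6.15). The gene model listed as tpp1 had 1.08 RPKM at stage 9 and 16.6 at stage 6 (centred -5.47). The tpp1 entry is a model of 138 bases with 2 reads at stage 9 and 102 at stage 6, and its counting interval ran from -8.53 to -3.58. The haem synthesis gene ppox had 1.597 RPKM at stage 9 and 21.7 at stage 6 (centred -5.29). The histone variant gene h2afj had 3.25 RPKM at stage 9 and 27.002 at stage 6 (centred -4.58). The prefoldin chaperone gene pfdn2 had 3.25 RPKM at stage 9 and 26.6 at stage 6 (centred -4.56). The iron-sulphur assembly gene fam96b had 5.79 RPKM at stage 9 and 42.5 at stage 6. The cyclophilin-like gene ppil3 had 1.57 RPKM at stage 9 and 11.3 at stage 6, and the catalytic proteasome gene psmb6 had 84.6 RPKM at stage 9 and 556 at stage 6. Of these, scamp3, ppox, pfdn2, fam96b, ppil3 and psmb6 were also lower at stage 9 in RZ, with centred RZ changes between -1.67 and -1.02, while h2afj was higher there (44.2 RPKM at stage 9, 27.1 at stage 6).

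The remaining genes of the lowest 12 were c9orf100, the single-stranded DNA binding protein gene purb, the ephrin gene efna4 and the membrane glycoprotein gene ptgfrn. The single-exon purb had 1.72 RPKM or 29 reads at stage 9 and 10.004 RPKM or 559 reads at stage 6, a centred change of -4.07 with a counting interval of -4.66 to -3.53. Its RZ level was higher at stage 9, with 5.11 RPKM at stage 9 and 0.605 at stage 6. For efna4, here a model of 0.291 kb on scaffold 8578, there were 13 reads at stage 9 and 250 at stage 6. Its centred change was -4.06, with an interval of -4.99 to -3.26. Ubiquitin gene ubb, on the housekeeping list, had 0.403 RPKM at stage 9 and 2.58 at stage 6 (centred -4.203).

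Fallen genes were short and often lay on small scaffolds. Median genomic span was 6.75 kb for fallen genes, 23.8 kb for risen genes and 18.4 kb for the rest. Among the 2337 genes of shortest span (up to 9.23 kb) 12.6% fell and the median centred change was -0.49, and among the 2337 of longest span 0.7702% fell and it was 0.37. The RZ medians of the same sets, centred on the RZ median, were -0.53 for short and 0.56 for long genes, so the relation to span was present in both kinds of RNA. On scaffolds whose last gene ends before 1 Mb lay 154 fallen genes (32.7%), against 16 risen genes (4.86%) and 7.47% of all genes with a change. Of the genes on those scaffolds 22.1% fell, and of the others 3.66%, which left 317 fallen genes. Whether unplaced or partial gene models account for these values was not tested.

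Genes of the respiratory chain and of the ribosome lay below the median change as groups, with list medians that moved to -0.29 for the respiratory chain and -0.06 for the ribosome when centred on abundant genes. Of 76 nuclear genes of oxidative phosphorylation, 0 rose and 13 fell, against 3.52% risen and 5.04% fallen among all genes. The list had a median centred change of -0.81 and 58 genes below the median of all genes. Its members were short, with a median genomic span of 6.61 kb, and among the 2337 genes of shortest span the median was -0.49. The complex I gene ndufc1 had 18.9 RPKM at stage 9 and 93.2 at stage 6 (centred -3.83), ndufb2 had 4.25 RPKM at stage 9 and 15.5 at stage 6 (centred -3.39). The ATP synthase gene atp5g3 had 127 RPKM at stage 9 and 389 at stage 6 (centred -3.15). At the other end, ndufa12 had 61.6 RPKM at stage 9 and 9.18 at stage 6 and a centred change of 1.22. In RZ the list's median was -1.61 over 76 genes. The entry cox3, the only gene of the list of mitochondrially encoded genes that the table holds, lay above the median at 0.83. Its model of 0.474 kb is placed on scaffold 6 of the assembly.

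Cytosolic ribosomal protein genes covered a wide range. Of 76, 3 rose, 6 fell and 54 lay below the median of all genes, and the list's median was -0.57. Over all genes 3.52% rose and 5.04% fell, and among the genes of shortest span 12.6% fell. The median span of the list was 6.08 kb. Among the risen were the large-subunit genes rpl5 and rpl26, at centred changes of 2.2002 and 2.02. In polyA rpl5 had 52.4 RPKM at stage 9 and 3.96 at stage 6, and rpl26 had 133 RPKM at stage 9 and 11.3 at stage 6. Both were lower at stage 9 in RZ, where rpl5 had 30.2 RPKM at stage 9 and 49.5 at stage 6. Among the fallen was the large-subunit gene rpl23, with 51.2 RPKM at stage 9 and 90.1 at stage 6. In RZ the list had a median of -1.19. Ribosomal protein genes can share reads with processed copies, so values of single genes are uncertain.

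Proteasome genes gave 0 risen and 6 fallen of 40, against 3.52% and 5.04% over all genes, with a median centred change of -0.41 that turned to 0.10 when centred on abundant genes. The fallen genes were the beta subunits psmb2, psmb4, psmb5 and psmb6 and the assembly factors psmg2 and psmg4. Of these psmb5 had 27.96 RPKM at stage 9 and 63.2 at stage 6, and psmb4 had 38.9 RPKM at stage 9 and 85.97 at stage 6. The beta subunit gene psmb7 lay above the median, with 109 RPKM at stage 9 and 13.3 at stage 6 and a centred change of 1.503. So did the ATPase gene psmc3, with 34.3 RPKM at stage 9 and 4.22 at stage 6 and a centred change of 1.497. In RZ psmb4, psmb5, psmb6, psmb7 and psmc3 were all lower at stage 9, with centred changes between -1.48 and -1.32.

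Both classes of histone genes had medians below that of all genes, though when centred on abundant genes these were -0.04 for replication-dependent and -0.39 for replacement and linker histones. The replication-dependent genes, whose RNAs normally end in a stem-loop and carry no tail, gave 9 of 22 genes compared. All 9 lay below the median of all genes, with a median of -0.55 and 1 fallen, against 5.04% fallen over all genes. Their median span was 0.565 kb, and the 2337 genes of shortest span had a median of -0.49. Their RPKM is the part of the RNA that was retained on oligo(dT). The gene hist1h2aa had 123 RPKM or 932 reads at stage 9 and 62.5 RPKM or 1571 reads at stage 6, with a counting interval of -0.67 to -0.43 around its centred change of -0.55. The fallen hist1h4d had 3.96 RPKM at stage 9 and 5.74 at stage 6, and its interval (-2.83 to -1.35) reached well inside the limit. Of the replacement and linker histones, 0 rose and 2 fell of 10, against 3.52% risen and 5.04% fallen over all genes, with a median of -0.90. The fallen were h2afj and h2afz (1.95 RPKM at stage 9 and 3.598 at stage 6). With the pseudocount hist1h4d (-1.66) and h2afz (-1.86) were short of 4-fold. The H3.3 gene h3f3a had 429.9 RPKM at stage 9 and 459.6 at stage 6. Apart from these stood h1foo, the linker histone gene of the oocyte, with 332 RPKM at stage 9 and 51.1 at stage 6, a centred change of 1.17.

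**Figure D4:**
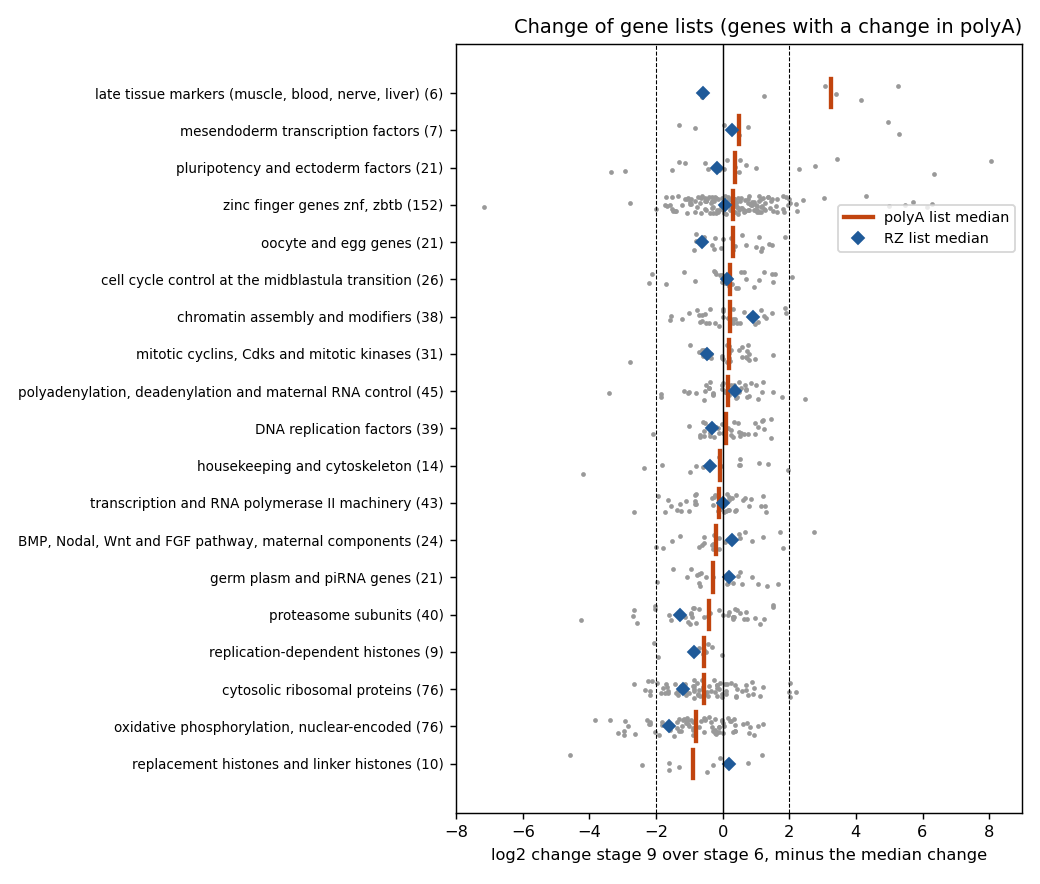
Centred log2 change of stage 9 over stage 6 in polyA (x axis) for each gene (grey points) of every list with at least 5 genes that have a change (y axis, number in brackets). Red bars are list medians in polyA and blue diamonds are list medians in RZ, each minus the median of all genes compared, and dashed lines mark 4-fold, with oxidative phosphorylation at -0.81 in polyA.

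Cell cycle lists lay near the median of all genes. Their counts stand beside 3.52% risen and 5.04% fallen over all genes. Of 31 mitotic cyclins, Cdks and kinases 0 rose and 1 fell (median 0.18), and the one that fell was the spindle checkpoint gene mad2l1, with 6.28 RPKM at stage 9 and 15.1 at stage 6 (centred -2.79). The Aurora kinase genes aurka (140.3 RPKM at stage 9 and 66.2 at stage 6) and aurkb (141 RPKM at stage 9 and 96.2 at stage 6) had centred changes of -0.44 and -0.97. The survivin gene birc5.1 (416 RPKM at stage 9 and 73.3 at stage 6), a partner of aurkb in the chromosomal passenger complex, had one of 0.98. Of 26 genes of cell cycle control at the MBT 1 rose and 2 fell (median 0.23). The risen gene was the Cdk inhibitor cdkn1a (1.797 RPKM at stage 9 and 0.147 at stage 6, centred 2.09). The fallen genes were the replication-origin regulators recql4 (12.7 RPKM at stage 9 and 19.1 at stage 6, centred -2.12) and dbf4b (20.7 RPKM at stage 9 and 33.2 at stage 6, centred -2.21). With the pseudocount none of the 3 stayed past 4-fold, at 0.07 for cdkn1a, -1.78 for recql4 and -1.88 for dbf4b. Among 39 replication factors 0 rose and 1 fell (median 0.10), the fallen one being rpa3, with 92.7 RPKM at stage 9 and 138 at stage 6, and its centred change was -1.79 with the pseudocount. The helicase genes mcm3 (43.1 RPKM at stage 9 and 5.47 at stage 6) and mcm4 (59.6 RPKM at stage 9 and 7.52 at stage 6) were near the top of the list, at 1.45 and 1.46.

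Regulators of tails and of maternal RNA gave 1 risen and 1 fallen of 45, against 3.52% and 5.04% over all genes, with a median of 0.15. The poly(A) polymerase gene papolg rose, with 129 RPKM at stage 9 and 8.12 at stage 6 in polyA (centred 2.46) and 89.7 RPKM at stage 9 and 61.8 at stage 6 in RZ. The mRNA-masking protein gene ybx2 fell, with 10.3 RPKM at stage 9 and 38.1 at stage 6 in polyA (centred -3.41) and 5.31 RPKM at stage 9 and 15.4 at stage 6 in RZ. The deadenylase scaffold gene cnot1 had 34.8 RPKM at stage 9 and 4.25 at stage 6 (centred 1.51). The RNA-destabilizing factor gene zfp36l1 had 60.6 RPKM at stage 9 and 6.12 at stage 6 (centred 1.78), and celf1, the Xenopus EDEN-binding protein gene, had 46.9 RPKM at stage 9 and 10.1 at stage 6 (centred 0.69).

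Germ plasm and oocyte genes varied on either side of the median, and over all genes 3.52% rose and 5.04% fell. None of 21 germ plasm and piRNA genes passed 4-fold (median -0.28, turning to 0.23 when centred on abundant genes, to 0.04 with equal summed RPKM and to 0.16 among genes of at least 5 RPKM). Germ plasm genes ran from -1.98 to 1.65. The vegetally localized velo1 had 99.3 RPKM at stage 9 and 13.6 at stage 6 (centred 1.34) and the germ plasm gene dnd1 37.4 RPKM at stage 9 and 27.2 at stage 6 (centred -1.07). Nor did any of 21 oocyte and egg genes (median 0.30, from -0.87 to 1.87). The oocyte growth factor gene bmp15 had 86.1 RPKM at stage 9 and 11.5 at stage 6 (centred 1.38). The kinase gene mos of meiotic arrest had 86.7 RPKM at stage 9 and 44.4 at stage 6 (centred -0.56, counting interval -0.61 to -0.51). The egg coat gene zp2 had 63.5 RPKM at stage 9 and 22.98 at stage 6 (centred -0.06). In RZ the oocyte list had a median of -0.63, and bmp15 was lower at stage 9 there, with 23.5 RPKM at stage 9 and 46.5 at stage 6.

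Chromatin and transcription machinery also stayed close to the median, and over all genes 3.52% rose and 5.04% fell. Of 38 chromatin assembly factors and modifiers none passed 4-fold (median 0.21), and in RZ their median was 0.90. The maintenance methyltransferase gene dnmt1 had 133 RPKM at stage 9 and 135 at stage 6 in polyA (centred -1.55) but 206 RPKM at stage 9 and 84.3 at stage 6 in RZ. The Polycomb genes ezh2 (26.4 RPKM at stage 9 and 7.502 at stage 6) and eed (118 RPKM at stage 9 and 16.7 at stage 6) had centred changes of 0.29 and 1.3002. Among 43 genes of RNA polymerase II and its factors 0 rose and 1 fell, with a median of -0.11 that was above 0 when centred on abundant genes (0.41), with equal summed RPKM (0.22), with a pseudocount of 1 (0.10) and among genes of at least 1 RPKM in both libraries (0.02). The shared polymerase subunit gene polr2h fell, with 16.8 RPKM at stage 9 and 37.02 at stage 6 (centred -2.67). The largest subunit gene polr2a had 86.2 RPKM at stage 9 and 100.2 at stage 6 in polyA (centred -1.74) and 60.9 RPKM at stage 9 and 16.9 at stage 6 in RZ. Another shared subunit gene, polr2f, had 535 RPKM at stage 9 and 80.1 at stage 6 in polyA (centred 1.22). The oocyte TBP paralog gene tbpl2 had 21.1 RPKM at stage 9 and 3.31 at stage 6, and tbp had 88.2 RPKM at stage 9 and 53.6 at stage 6.

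Housekeeping and cytoskeletal genes, 14 in number, gave 0 risen and 2 fallen (ubb and ppia), against 3.52% and 5.04% over all genes. Their median of -0.08 was above 0 under the same 4 alternatives. The actin gene actb had 209 RPKM at stage 9 and 18.7 at stage 6 in polyA (centred 1.96) but 299 RPKM at stage 9 and 417 at stage 6 in RZ. Of 15 follicle and leucocyte markers, vim was the only one compared, and the list summed to 3.19 RPKM at stage 9 and 0.4597 at stage 6. Most of both sums was vim, with 2.42 RPKM at stage 9 and 0.404 at stage 6. It is also 1 of the 43 genes abundant at stage 30 (292 RPKM) and was at 0 in RZ at stages 9 and 6.

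The polyA and RZ changes were only loosely related. Across 9303 genes with both, Spearman's rank correlation was 0.23 and Pearson's r 0.27, as a description of 4 libraries whose genes are not independent replicates. Of all these genes 18.1% were at least 2-fold above the RZ median. The 2337 genes lowest in RZ at stage 6 (up to 3.22 RPKM) held 205 of the 329 risen genes. Their median centred RZ change was 0.67, and that of the risen genes was 0.75. The RZ stage 6 level enters both the choice of these 2337 genes and their RZ change. How much of the RZ change of risen genes goes with a low level was not tested. Of 298 risen genes with an RZ ratio, 133 (44.6%, 95% Wilson interval 39.1 to 50.3) were at least 2-fold above the RZ median, 133 lay within 2-fold of it and 32 were at least 2-fold below. Of 467 fallen genes, 178 (38.1%) were at least 2-fold below the RZ median, 271 within 2-fold and 18 (3.85%) above. Of 8538 other genes 17.99% were above and 14.97% below. With a filter of 1 RPKM in both polyA libraries the share of risen genes above in RZ was 28.5%. The interval on a share counts each gene as 1 draw and leaves out any difference between libraries.

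**Figure D5:**
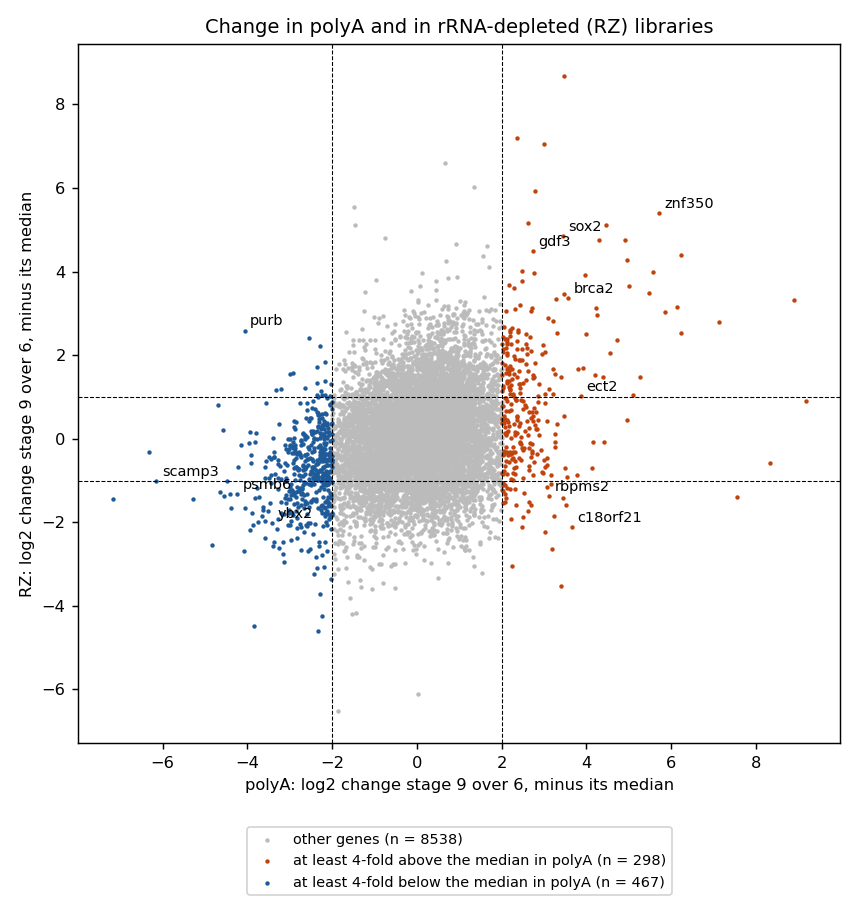
Centred log2 change of stage 9 over stage 6 in RZ (y axis) against polyA (x axis), 1 point per gene, with risen genes in red and fallen genes in blue and dashed lines at 4-fold in polyA and 2-fold in RZ. Of the risen genes 133 lie above the upper RZ line and 32 below the lower one, and of the fallen genes 178 lie below the lower one.

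By the gastrula, many of the risen genes were lower again, as were many other genes. The ratio of stage 12 to stage 9 was not centred. Summed polyA RPKM was 196370 at stage 12 and 295947 at stage 9. Risen genes had a median of 7.6004 RPKM at stage 9 and 2.62 at stage 12. Genes that neither rose nor fell had a median of 14.8 RPKM at stage 9 and 4.82 at stage 12. Both medians were thus lower by a similar factor. In polyA at stage 12, 172 of 329 risen genes (52.3%) were at least 4 times lower than at stage 9, against 39.1% of genes that neither rose nor fell. Another 37 (11.2%) were at least 4 times higher than at stage 9, against 1.85%. The stage 9 library enters both comparisons, so a value that was high at stage 9 favours the first count. Of the 54 genes listed at 0 at stage 6, 26 were at least 4 times higher at stage 12 and 14 at least 4 times lower. The forkhead gene foxa4 shows the first course, with 1.14 RPKM at stage 9 and 117 at stage 12, and sia2 the second.

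Counting error was small beside these differences for most single-exon genes. Among the genes compared, 176 had a single exon and 175 of them reads in both libraries, with a median log2 change of 1.32. The 95% Clopper-Pearson interval of the change, conditional on the total reads and covering counting error only, lay wholly above the median change of all genes for 63, wholly below for 78, and held it for 34. Its median half-width was 0.39 on the log2 scale. At least 4-fold above the median were 13 genes, of which 9 had the whole interval past the limit, and at least 4-fold below were 23, of which 15 did. The intervals compare these 2 libraries and say nothing of how other clutches would vary.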

How the data were processed

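Whole Xenopus tropicalis embryos were sampled at stage 9 and stage 6, and RNA of 3 replicates was pooled into 1 polyA library per stage on an Illumina Genome Analyzer. The deposited table holds RPKM, which the authors computed from reads mapped with BWA 0.6.1 to the JGI 7.1 assembly as the mean over the non-redundant exons of all isoforms of a gene, with reads that mapped to several positions left out. The summed value of a library therefore differs from a fixed total, and the processed values as deposited were used without rescaling. From them, genes of at least 1 RPKM in one of the 2 polyA libraries were kept, log2 of stage 9 over stage 6 was taken with no pseudocount, and the median was subtracted. Genes 4-fold from that median were said to have risen or fallen. RZ values were centred on their own median over the same genes. With 1 library per stage there was no test, and the procedure was tested on simulated data.

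Single-exon genes give whole reads, from which depth and counting intervals were derived (Clopper-Pearson, 95%). Shares of genes carry Wilson intervals. Intervals and the floor of 3 reads cover counting error only, since polymerase chain reaction copies were not marked. Gene names were those of the table, and 8761 of the genes compared matched the RefSeq gene list. The text names the 12 highest and 12 lowest centred changes among genes of at least 10 RPKM in one library, the 8 highest genes at 0 at stage 6, the 6 most abundant per library, the 4 highest and 4 lowest of each list among genes of at least 5 RPKM, and list members that the study names. Other list members at 0 at stage 6 or past the limit, all members of the zinc finger stretch, the follicle marker vim, the neighbours lin9 and nbr1, and brca1, brca2, nipbl, usp9x, rbpms2, prdm9, hes2 and ubb were named after their values were seen. The genes compared, the gene lists and the limits were chosen with earlier results of these data known. Other columns of the table that belong to stages not compared here served only for the levels given at those stages. Alternatives covered the filter, the pseudocount, the centre and the fold limit. Sequences were not used here, and some genes within the naming rule are not reported here. Python 3.11.15, numpy 2.4.6, pandas 2.3.3, scipy 1.17.1 and matplotlib 3.10.9 were used.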

Additional observations from a re-analysis of the deposited data

Results flagged for a closer look

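For 5 gene lists the median centred change had opposite signs in polyA and in RZ and differed by at least 0.5 on the log2 scale. With 1 library per stage and kind of RNA this difference was not tested. Pluripotency and ectoderm factors had a median of 0.36 in polyA and -0.19 in RZ. Mitotic cyclins, Cdks and kinases had 0.18 in polyA and -0.46 in RZ, and oocyte and egg genes had 0.30 in polyA and -0.63 in RZ. Late tissue markers had 3.24 in polyA, over 6 genes, and -0.61 in RZ. Replacement and linker histones ran in the other order, with -0.90 in polyA and 0.18 in RZ.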

How the results depend on the processing

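Of 87 recomputed main values and counts, 59 stayed close. Close meant within 1.5-fold for a count, within 0.1 for a median or correlation, and inside the Wilson interval for a share. The number of risen genes was 192 with a filter of 5 RPKM, 144 with 1 RPKM in both libraries, 745 with no filter, 97 with a pseudocount of 1, 570 with equal summed RPKM, 776 centred on abundant genes, 1585 at 2-fold and 99 at 8-fold. Fallen genes numbered 245 with the pseudocount, 294 with equal sums, 224 centred on abundant genes, 1685 at 2-fold and 95 at 8-fold. As deposited, genes higher at stage 9 numbered 1651 with the pseudocount, 6423 at 2-fold and 788 at 8-fold, and lower ones 28 with 1 RPKM in both, 98 with no filter, 23 with the pseudocount, 224 at 2-fold and 10 at 8-fold. The median change was 1.404 with 1 RPKM in both and 1.22 with the pseudocount. The share of risen genes at least 2-fold above the median in RZ was 28.5% with 1 RPKM in both, 29.7% with the pseudocount, 37.1% with equal sums, 35.1% centred on abundant genes and 24.8% at an RZ limit of 4-fold. These moves follow from the genes, centre or limit that each alternative sets. Of 95 named genes past 4-fold, 54 stayed past it with the pseudocount and 84 when centred on abundant genes. The called change of tfap2a turned to -0.0714 with the pseudocount. Medians of 7 lists changed sign in 17 of 217 values. The alternative without genes under 0.1 RPKM in RZ at stage 9 was chosen after seeing the data.

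No paired analysis was possible because each stage had 1 pooled library, so no replicate could be left out either. The floor of 3 reads on 1 kb, 0.224 RPKM at stage 9, limits what can be said of genes near 0.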
